A study of Homo sapiens with 12 samples.

Results

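A mutant of the transcription factor TFAP2β was compared with the unaltered protein by sequencing the RNA of KYSE150, a human cell line from an esophageal squamous carcinoma. The mutant is labelled GFP-TFAP2β-Mut_IDR3 (here Mut_IDR3) and the unaltered protein GFP-TFAP2β (here WT). Both carried a GFP tag and both were overexpressed. All 24302 features of the deposited count table entered the comparison, in 6 of the 12 libraries of the series, 3 with Mut_IDR3 and 3 with WT. Libraries of cells with GFP alone, and of cells with GFP-TFAP2β-ΔIDR3 (here dIDR3, after the symbol that usually marks a deleted region), 3 of each, served as the background and as a second altered form. The series describes both altered forms as deficient in phase separation. The labels do not give the residues changed in Mut_IDR3, the promoter of the constructs or the origin of the replicates. If the replicates were not separate cultures, the p-values reflect technical spread alone, since they measure no more than how these samples vary.

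AP-2 proteins, of which TFAP2β is one, bind GC-rich DNA as dimers and act in the development of epithelia and neural crest. An intrinsically disordered region (IDR) is a stretch of protein without a fixed fold, and such regions can let transcription factors gather in condensates with their partners. Squamous cells also carry the machinery of innate defence, in which foreign nucleic acid is sensed, interferons are secreted, and receptors on the same and neighbouring cells switch on interferon-stimulated genes.

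The gene of the constructs, TFAP2B (ENSG00000008196, chromosome 6, 50818723 to 50847613), checked the labels. Its level, in CPM (counts per 1000000 counts of a library, scaled between libraries), was 286, 232 and 323 in the 3 WT libraries and 687, 732 and 687 in the 3 Mut_IDR3 libraries, against 0, 0.279 and 0.0924 with GFP alone. Every Mut_IDR3 library lay above every WT library. Mut_IDR3 therefore held 2.5-fold more TFAP2B RNA than WT (log2 fold change 1.32, SE 0.12, adjusted p = 5.11e-07 by edgeR's quasi-likelihood test). Reads from the construct and from the cell's own gene were not told apart. The amount of construct RNA moved with the groups, and its part in the results below was not tested.

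Of 14792 features tested, 6519 (44.1%) differed between Mut_IDR3 and WT at an adjusted p under 0.05, 3432 higher (23.2%) and 3087 lower (20.9%) with Mut_IDR3. Most of these changes were small, since 61.2% of the calls were under 1.5-fold. The median absolute change of the calls was 0.48 on the log2 scale. The median signed change over all tested features, in which rises and falls cancel, was 0.03 on the log2 scale. Large changes leaned to lower levels. At 2-fold or more there were 414 higher (2.80%) and 558 lower (3.77%) features, at 4-fold or more 105 and 237, and at 16-fold or more 33 and 104. The 3 libraries of one group did not overlap those of the other in 6170 of the 6519 calls, and in 7506 of all 14792 tested features. Of the 2068 tested features that the table names only as NewGene, 405 were called. The shares of all tested features, 23.2% higher and 20.9% lower, are the background for the counts of list members below.

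**Figure D1:**
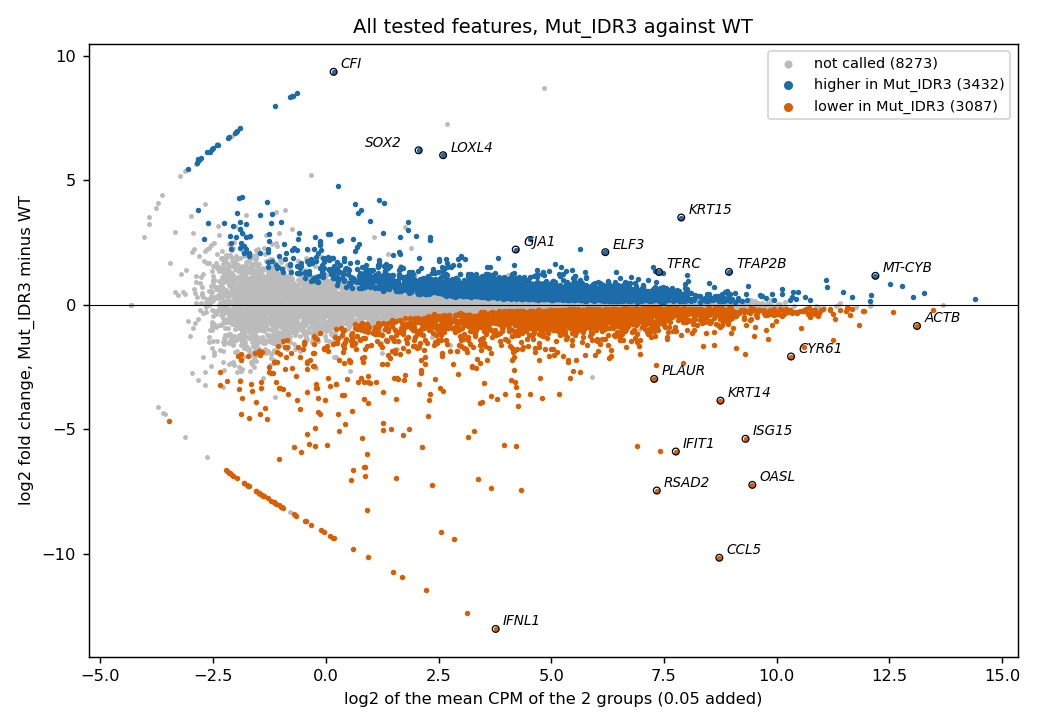
Each point is 1 tested feature, with the log2 of its mean CPM over both groups (0.05 added) on the x axis and the log2 fold change of Mut_IDR3 against WT on the y axis. Blue points are higher and orange points lower with Mut_IDR3 at an adjusted p under 0.05, and the slanted rows at the edges are features without counts in 1 of the groups. The named interferon genes lie at the bottom, with OASL at -7.22 and CCL5 at -10.15, while SOX2, LOXL4 and KRT15 lie at the top.

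The libraries held 30.7 M to 43.5 M counts, and the replicates within a group differed by more than counting noise in every pair. The WT pairs were the most uneven. Their chi-square per gene against counting noise was 19.0, 20.2 and 41.1, against 9.74, 9.05 and 9.42 for the Mut_IDR3 pairs. The test shares its estimate of the spread between all groups. Mitochondrially encoded RNA made up 5.38 to 6.09% of the counts with WT and 8.20 to 8.63% with Mut_IDR3. All 7 squamous epithelium markers passed the filter on low counts, with a summed level of 4543 to 5188 CPM with WT and 4460 to 4605 CPM with Mut_IDR3. Most of this sum was KRT5 (mean 2902 CPM with WT and 3625 CPM with Mut_IDR3). The markers went both ways, with 3 called higher and 3 lower. Fibroblast markers summed to 5.34 to 6.56 CPM with WT and 3.76 to 4.47 CPM with Mut_IDR3, nearly all of it COL1A1, the 1 of 7 that passed the filter on low counts. Leukocyte markers summed to 81.7 to 102.4 CPM and 50.1 to 56.5 CPM, nearly all of it CD68, a lysosomal gene that other cells also express, and the defining marker PTPRC had no counts. Endothelial markers summed to at most 1.21 CPM in any library of either group, and PECAM1 and KDR had no counts.

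Secreted interferons were among the largest falls with Mut_IDR3. IFNL1 (ENSG00000182393, chromosome 19, 39296325 to 39298673), a type III interferon of epithelial defence, was at 29, 23.5 and 28.9 CPM in the WT libraries and had no counts in any Mut_IDR3, dIDR3 or GFP library. It was at least 1023-fold lower with Mut_IDR3 than with WT, where the bound rests on a floor of 3 counts over the group. IFNL3 was at 18.3, 16.9 and 16.9 CPM with WT and also had no counts with Mut_IDR3 (at least 650.5-fold lower). IFNL2 had 15.2, 14.3 and 13.3 CPM with WT and 2 counts in all with Mut_IDR3, a ratio of 802 (95% counting interval 222 to 6629). All 3 lie within a short stretch of chromosome 19 (39243553 to 39298673), and IFNL2 and IFNL3 are near-identical, so that reads could not be assigned to either with certainty. Such floors and intervals cover counting error only. SPOCK1, a secreted proteoglycan, had 10.4, 11.8 and 12.5 CPM with WT and 2 counts with Mut_IDR3, a ratio of 653 (180.4 to 5399), and CXorf49, whose reads are uncertain between near-identical copies, was at least 245-fold lower. In bulk RNA, fewer cells that express a gene and less RNA per cell cannot be told apart.

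The other interferon tested was IFNB1, a type I interferon, at 0.826, 0.414 and 0.604 CPM with WT (69 counts over the 3 libraries) and without counts in the other 9 libraries. The receptor genes moved much less and in both directions. IL10RB, a chain of the type III receptor, fell by 0.58 and IFNGR2 by 0.62 on the log2 scale, while IFNAR1 rose by 0.60 and IFNGR1 by 0.23. IFNAR2, at 22.4 CPM with WT and 24.9 CPM with Mut_IDR3, was not called. Of the 9 ligands and receptors tested, 6 were lower, 2 higher and 1 not called. The IFNL genes and IFNB1 passed the filter on low counts through WT alone, so they could not come out higher.

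Among 17 sensors of foreign nucleic acid and their adaptors, 7 were lower and 5 higher with Mut_IDR3 (8 and 3 with a trend of GC content removed), with a median of -0.17. The 3 RNA helicases of the RIG-I family showed the largest falls among these 7. DHX58 (LGP2) was at 24.4, 24 and 26.6 CPM with WT and 0.0643, 0.0522 and 0.302 CPM with Mut_IDR3 (log2 fold change -7.36, SE 0.37, adjusted p = 9.36e-09). IFIH1 (MDA5) was at 68.7, 76.8 and 80.8 CPM with WT and 10.2, 9.6 and 9.51 CPM with Mut_IDR3 (-2.95), and DDX58 (RIG-I itself) fell from 20.3 ± 1.66 to 2.32 ± 0.165 CPM (mean ± SD, n = 3). For each of them the highest Mut_IDR3 library was below the lowest WT library. TICAM1, the adaptor of the endosomal receptor TLR3, fell by 1.36, and TMEM173 (STING), the adaptor of DNA sensing, by 1.36. The 5 that rose were the kinase TBK1 (0.69), the RNA-activated kinase EIF2AK2 (0.60), IFI16 (0.52), MAVS (0.20) and TLR3 (1.23).

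Downstream of the interferon receptors, 12 of 14 transcription factors and signalling genes were lower and none was higher, with a median of -0.76. IRF1 fell from 153 ± 7.6 to 47.8 ± 2.17 CPM (-1.68, SE 0.06, adjusted p = 1.91e-11). The feedback inhibitors SOCS3 (-1.68) and USP18 (-1.20) fell. The core factor STAT2 (-1.03) was lower as well. IRF9, its partner, was called (-1.47, adjusted p = 0.0244) but uneven, at 8.29, 2.81 and 12.4 CPM with WT against 3.25, 2.56 and 2.71 CPM with Mut_IDR3. The second WT library lay within the range of Mut_IDR3. JAK1 (0.04, adjusted p = 0.672) and JAK2 (-0.13, adjusted p = 0.711) were not called.

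Of 45 interferon-stimulated effectors tested, 38 were lower, 2 higher and 5 not called, against 20.9% lower and 23.2% higher of all tested features, and 26 were lower by at least 2-fold. Their median was -1.79, against 0.03 over all features. OASL (ENSG00000135114, chromosome 12, 121019111 to 121039242), an antiviral protein of the 2'-5' oligoadenylate synthetase family, was at 1424, 1361 and 1406 CPM with WT and 10.9, 9.05 and 8.33 CPM with Mut_IDR3. Its fall of 149-fold (log2 fold change -7.22, SE 0.09, adjusted p = 1.02e-16) took it below the 13.6, 15.4 and 14.9 CPM of the GFP libraries, without overlap between the 3 groups. RSAD2 (viperin) went from 303, 355 and 308 to 1.35, 2.16 and 1.93 CPM (-7.45), and OAS2 from 41.1, 39.6 and 38.9 to 0, 0.0782 and 0.534 CPM (-7.44). The WT libraries were high in each case, and the OAS2 counts with Mut_IDR3 came mostly from 1 library.

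IFIT1 (ENSG00000185745, chromosome 10, 89392546 to 89406486), which binds viral RNA, was at 391, 471 and 417 CPM with WT, 7.17, 7.27 and 7.19 CPM with Mut_IDR3 and 16.3, 15.2 and 17.5 CPM with GFP. It fell 59.1-fold against WT (-5.88, SE 0.09, adjusted p = 3.78e-16), and its level with Mut_IDR3 was also below that with GFP (-1.18, adjusted p = 1.06e-06). ISG15, a ubiquitin-like modifier, was at 1290, 1155 and 1266 CPM with WT, 29.4, 31.7 and 28.3 CPM with Mut_IDR3 and 36.4, 33.2 and 35.5 CPM with GFP (-5.37 against WT). HERC5, the ligase that attaches ISG15, fell from 32.5, 39.9 and 37.1 to 0.771, 0.521 and 0.858 CPM (-5.66). Over the list, 19 of the 45 effectors were lower and 4 higher with Mut_IDR3 than with GFP, where 9.85% of all tested features were lower and 11.2% higher. The Mut_IDR3 libraries enter both comparisons, so they are not independent. The 2 effectors that were higher with Mut_IDR3 than with WT were IFITM2 (0.57) and TRIM25 (0.21).

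**Figure D2:**
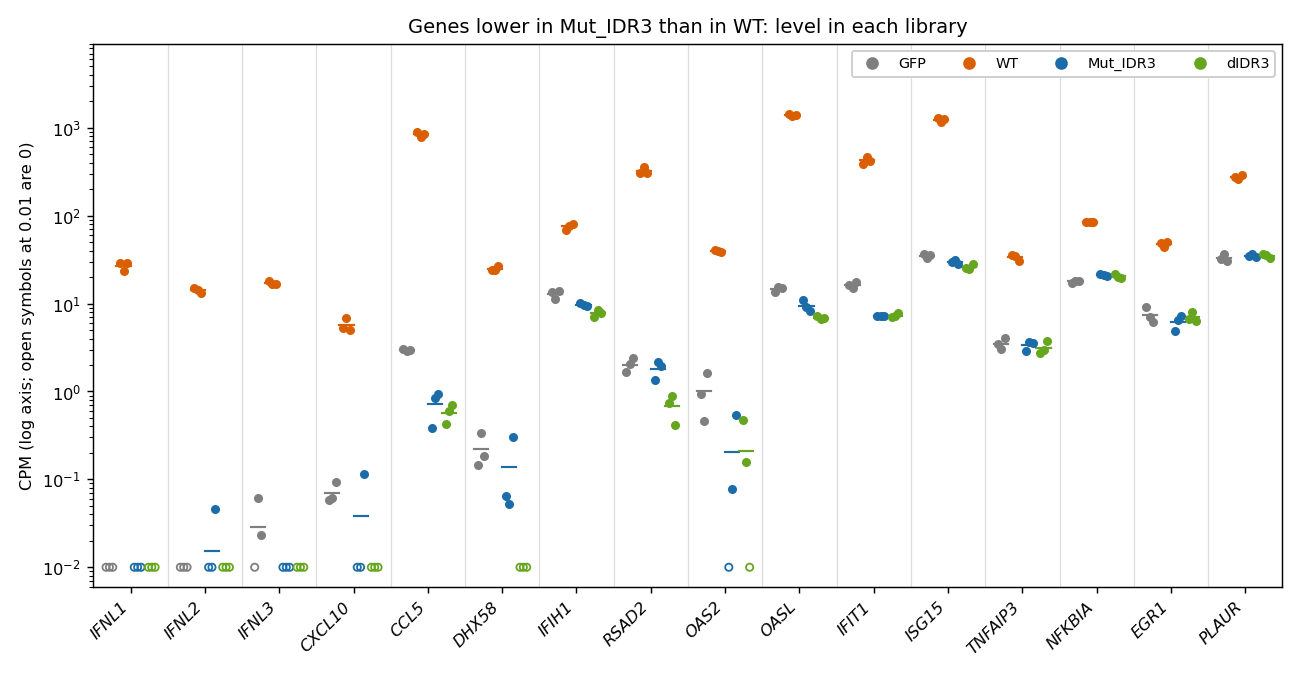
Level of 16 genes in each of the 12 libraries, in CPM on a log axis, with 1 symbol per library, a short line at the group mean and open symbols at 0.01 for 0 counts. The 3 WT libraries stand above all Mut_IDR3, dIDR3 and GFP libraries for each gene drawn. The WT means range from 5.75 CPM for CXCL10 to 1397 CPM for OASL.

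The promoters of some of these genes carry the letters of the interferon-stimulated response element (ISRE), the site of the STAT and IRF factors. In the 250 bases before the start of RefSeq genes (build GRCh38.p14), the letters GAAA, any 2 bases, GAAA were searched on either strand. They are shown for 4 genes with large falls, chosen after the matches were seen, 5' to 3' on the strand of the gene, with the matches in capitals, which can overlap each other. The stretches are chr19:39296172-39296231 (plus strand), chr10:89392483-89392542 (plus), chr1:1013362-1013421 (plus) and chr4:76023683-76023742 (minus).
IFNL1: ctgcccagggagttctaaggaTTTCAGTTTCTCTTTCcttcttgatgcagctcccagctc
IFIT1: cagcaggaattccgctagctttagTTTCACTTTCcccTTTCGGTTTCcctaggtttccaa
ISG15: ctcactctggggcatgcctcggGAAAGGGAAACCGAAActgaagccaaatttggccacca
CXCL10: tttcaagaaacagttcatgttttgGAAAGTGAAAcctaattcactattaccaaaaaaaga

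Of the 327 genes that were called at least 2-fold lower and had a promoter in the table (of 558), 33 (10.1%) held the ISRE letters. The share was 2.16% of the 232 matched genes that were at least 2-fold higher, 2.33% of the 9946 matched genes of all tested and 3.07% of all 27305 promoters in the table. Among the 15 largest falls, 9 had a promoter in the table and 6 of those held the letters, against 0 of 13 among the 15 largest rises. The 6 include the neighbours IFNL1, IFNL2 and IFNL3. The near-identical IFNL2 and IFNL3 both hold the match 176 bases before the start, so these 6 are not independent. The letters of a kappaB site (GGG, any 2 bases, TTTCC, on either strand) were in 5.81% of the lower genes, 1.29% of the higher and 1.73% of all promoters. Those of an AP-1 site, TGANTCA, which reads the same on both strands, were in 11.3% of the lower genes, 9.48% of the higher, 3.97% of the tested and 6.60% of all promoters. The letters GCCNNNGGC of an AP-2 site, also the same on both strands, were in 22.0% of the lower genes, 27.2% of the higher genes, 27.6% of the tested genes and 19.7% of all promoters. A match of letters describes a sequence and is not a measured binding site.

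Genes of MHC class I presentation, by which cells show peptides to T cells, were lower in 15 of 17 cases, with 1 higher, 1 not called and a median of -0.82. B2M, the common light chain, was at 839, 969 and 708 CPM with WT and 252 ± 1.89 CPM (mean ± SD, n = 3) with Mut_IDR3 (-1.73, SE 0.09, adjusted p = 1.15e-09). The peptide transporter gene TAP1 fell by 1.26, and the heavy chain gene HLA-F by 0.98. The B2M level with GFP was 279.7, 298 and 306 CPM, above every Mut_IDR3 library and below every WT library. For B2M, Mut_IDR3 was not called against GFP (-0.22, adjusted p = 0.0779 by edgeR). The member that rose was PSMB8, an immunoproteasome subunit (0.62). Of 6 guanylate-binding proteins, GTPases of defence inside the cell, 4 were lower and GBP6 was higher (1.06, from 1.75 ± 0.128 to 3.65 ± 0.203 CPM). GBP4 fell by 3.63, GBP1 by 1.61 and GBP3 by 0.79.

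Chemokines, which draw leukocytes, were lower in 7 of 12 cases and higher in none, with a median of -3.53. Of these, CCL3, CXCL10 and CXCL11 had means of at most 0.124 CPM with GFP, Mut_IDR3 and dIDR3. They passed the filter on low counts through WT alone and could not come out higher, which bears on the count and the median. CCL5 (ENSG00000271503, chromosome 17, 35871491 to 35880793) was at 899, 778 and 861 CPM in the WT libraries and 0.386, 0.834 and 0.928 CPM in the Mut_IDR3 libraries (-10.15, SE 0.14, adjusted p = 2.16e-16). With GFP it was at 3.04, 2.92 and 2.98 CPM, above every Mut_IDR3 library (-1.999 for Mut_IDR3 against GFP, adjusted p = 2.95e-05). CXCL10 fell from 5.29, 6.9 and 5.07 to 0, 0 and 0.116 CPM (-6.94) and CXCL11, a ligand of the same receptor, by 5.35. CCL3 was at 6.03, 4.91 and 5.7 CPM with WT. It lacked counts in all Mut_IDR3 libraries, at least 209-fold lower, with reads that are uncertain between near-identical copies. CXCL16 (-0.01, adjusted p = 0.949) was among the 5 chemokines not called.

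Interleukins and other cytokines fell in 14 of 18 cases, with 1 rise, 3 not called and a median of -1.50. IL6, a mediator of the acute-phase response, fell from 23.5 ± 3.1 to 1.86 ± 0.717 CPM (-3.64) and IL32 from 25.7 ± 4.62 to 1.9 ± 0.163 CPM (-3.76). IL1RN, the natural antagonist of interleukin 1, fell by 2.61 and IL1A by 1.64, while IL1B, at 34.5 and 33.3 CPM, was not called (adjusted p = 0.752). The rise was in CSF1 (0.85), a growth factor of macrophages.

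NF-kB subunits and feedback genes were lower in 14 of 18 cases, with a median of -0.85. TNFAIP3 (A20), an inhibitor that NF-kB induces, was at 35.5, 34.8 and 30.4 CPM with WT and 2.89, 3.68 and 3.6 CPM with Mut_IDR3 (-3.30, SE 0.15, adjusted p = 3.70e-10). NFKBIA, which holds NF-kB in the cytoplasm, fell from 85.5, 85.6 and 84.4 to 22, 21.1 and 20.9 CPM (-1.999). The GFP libraries were at 3.45, 3.07 and 4.02 CPM for TNFAIP3, overlapping Mut_IDR3, and at 17.2, 18.2 and 18.2 CPM for NFKBIA, below every Mut_IDR3 library. RELB fell by 1.78 and TNIP1 by 1.28. The exception was the subunit gene REL, which rose by 0.65, and NFKB1 (-0.13, adjusted p = 0.118) was not called. The kappaB letters of the 2 feedback genes lie close to their starts and are shown in capitals, from chr6:137867169-137867228 (plus strand) and chr14:35404795-35404854 (minus strand).
TNFAIP3: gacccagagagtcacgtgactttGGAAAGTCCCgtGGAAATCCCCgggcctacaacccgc
NFKBIA: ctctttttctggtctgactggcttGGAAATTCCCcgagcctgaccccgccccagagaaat

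Genes that respond fast to growth signals were mostly lower. Of 11 AP-1 factors, 10 were lower and none higher (median -1.31). FOSL1 was at 202, 183 and 209.9 CPM with WT and 52.7, 49 and 51 CPM with Mut_IDR3 (-1.96, SE 0.07, adjusted p = 9.29e-12), and JUN fell from 63.9, 58.4 and 61.8 to 14.9, 15.7 and 13.3 CPM (-2.07). MAFF fell by 2.30 and ATF3 by 1.44, while JUND (-0.07, adjusted p = 0.481) was not called. No library of these 4 called factors overlapped between the groups. Of 24 other immediate early genes, 20 were lower and 1 higher (median -1.22). EGR1 fell from 49.1, 43.7 and 50.1 to 4.85, 6.57 and 7.31 CPM (-2.92), KLF4 by 2.70, ZFP36, which destabilises cytokine mRNA, by 2.00, and IER3 by 1.66. The rise was in KLF5, a factor of epithelial proliferation (0.49). Against GFP, 6 of the 11 AP-1 factors and 6 of the 24 other genes were higher with Mut_IDR3, and none was lower. Of all tested features, 11.2% were higher and 9.85% lower with Mut_IDR3 than with GFP.

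The ERK pathway induces inhibitors of itself. In a list of such inhibitors and related genes, not all of which act on ERK, 15 of 17 were lower and none higher (median -0.99). SPRY4 fell from 10.4 ± 1.06 to 1.04 ± 0.39 CPM (-3.32), the phosphatase DUSP5 by 2.10, DUSP10 by 1.40 and PHLDA1 by 0.88. Of 9 ERBB receptors and ligands, 4 were lower, among them the EGFR ligands AREG (-1.78), HBEGF (-1.87) and TGFA (-0.96). NRG1 (0.49) and EGFR (0.19), the receptor itself, were higher. Targets of YAP and TEAD, which read cell density and tension, split into 10 lower, 5 higher and 8 not called. Of all tested features 20.9% were lower and 23.2% higher, and the rises in the ERBB and YAP lists were near the latter share. CYR61 was at 2100, 2048 and 2036 CPM with WT and 491, 479.6 and 499 CPM with Mut_IDR3 (-2.07), and CTGF and NUAK2 fell by 2.21 and 2.22. YAP1 (-0.04, adjusted p = 0.564) was not called.

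The 15 largest rises, among called genes whose higher group reached 5 CPM and whose libraries do not overlap, were led by SOX2, LOXL4 and KRT15. SOX2 (ENSG00000181449, chromosome 3, 181711924 to 181714436), a transcription factor of squamous progenitors that is often amplified in esophageal cancer, was at 0.11, 0.0592 and 0.145 CPM with WT and 7.78, 8.63 and 7.96 CPM with Mut_IDR3. This was a rise of 73.6-fold (6.20, SE 0.36, adjusted p = 5.22e-09). With GFP it was at 5.36, 5.43 and 4.14 CPM, between the other 2 groups and overlapping neither. The difference of Mut_IDR3 from GFP was not called for SOX2 (0.71, adjusted p = 0.0514 by edgeR). LOXL4 (ENSG00000138131, chromosome 10, 98247690 to 98268250), a lysyl oxidase that crosslinks matrix, rose from 0.275, 0.296 and 0 to 12.9, 10.1 and 12.5 CPM, 64.2-fold (log2 fold change 6.004, SE 0.38). LOXL4 was at 16.9, 14.5 and 15.2 CPM with GFP, against which Mut_IDR3 was not called (-0.39, adjusted p = 0.287 by edgeR). Among the other lysyl oxidases, LOXL1 fell by 0.52 (adjusted p = 0.00619, and 0.0645 after removal of a trend with GC content). LOXL2 (-0.08) and LOX (0.58) were not called.

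Promoter stretches of SOX2 and LOXL4 hold the AP-2 letters, and are shown because they belong to the 2 largest of these 15 rises. The letters were not particular to rises. They were in 4 of the 13 matched promoters of the 15 largest rises and in 4 of the 9 of the 15 largest falls. They come from chr3:181711770-181711829 (plus strand) and chr10:98268230-98268314 (minus strand), and the capitals mark GCCNNNGGC, which is common in GC-rich promoters.
SOX2: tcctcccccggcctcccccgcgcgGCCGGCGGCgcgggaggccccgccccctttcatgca
LOXL4: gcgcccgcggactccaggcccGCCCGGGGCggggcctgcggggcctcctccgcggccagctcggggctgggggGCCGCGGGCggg

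Keratin 15, typical of basal and stem-like squamous cells, rose while other keratin genes of chromosome 17 fell. KRT15 (ENSG00000171346, chromosome 17, 41513743 to 41522529) was at 39.9, 39 and 35.7 CPM with WT and 427, 446 and 427 CPM with Mut_IDR3 (3.50, SE 0.07, adjusted p = 7.75e-15). With GFP it was at 469.8, 472 and 453 CPM, and Mut_IDR3 was not called against GFP (-0.10, adjusted p = 0.236 by edgeR). KRT14 fell from 822, 731 and 864 to 55.5, 59.1 and 53.9 CPM (-3.84, SE 0.07, adjusted p = 2.99e-15), and its GFP level of 229.7, 226 and 226 CPM lay between the groups. KRT17 fell by 1.69, KRT16 by 2.03 and KRT6A, from the type II cluster of chromosome 12, by 1.05. KRT5, the usual partner of KRT14, rose by 0.32 and TP63, the master factor of squamous identity, by 0.36. TP73, a relative of TP63, rose from 1.62, 0.977 and 1.23 to 8.55, 9.67 and 7.42 CPM (2.74). Its GFP libraries were at 8.69, 10.3 and 9.01 CPM, and Mut_IDR3 was not called against them (-0.13, adjusted p = 0.676 by edgeR). Over the 20 basal keratins and regulators, 6 were higher, 9 lower and 5 not called, with a median of -0.26, or -0.12 with the trend of GC content removed.

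Of 23 genes of squamous differentiation, 11 were lower, 4 higher and 8 not called, where 20.9% of all tested features were lower and 23.2% higher. The factors GRHL3 (-2.73) and OVOL1 (-2.38) and the membrane protein EMP1 (-0.58) fell. ELF3, an epithelial ETS factor, was at 28.6, 25.8 and 28.1 CPM with WT and 120.4, 122 and 115 CPM with Mut_IDR3 (2.11, SE 0.06), above the 113, 106 and 104 CPM of the GFP libraries. Its difference between Mut_IDR3 and GFP was not called (0.14, adjusted p = 0.0930 by edgeR). Of 14 kallikreins and protease inhibitors, 5 were lower, such as SLPI (-1.16) and SERPINB5 (-0.96), and 3 higher, near the share of all features, namely KLK6 (1.26), SERPINB13 (1.11) and KLK8 (1.08).

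**Figure D3:**
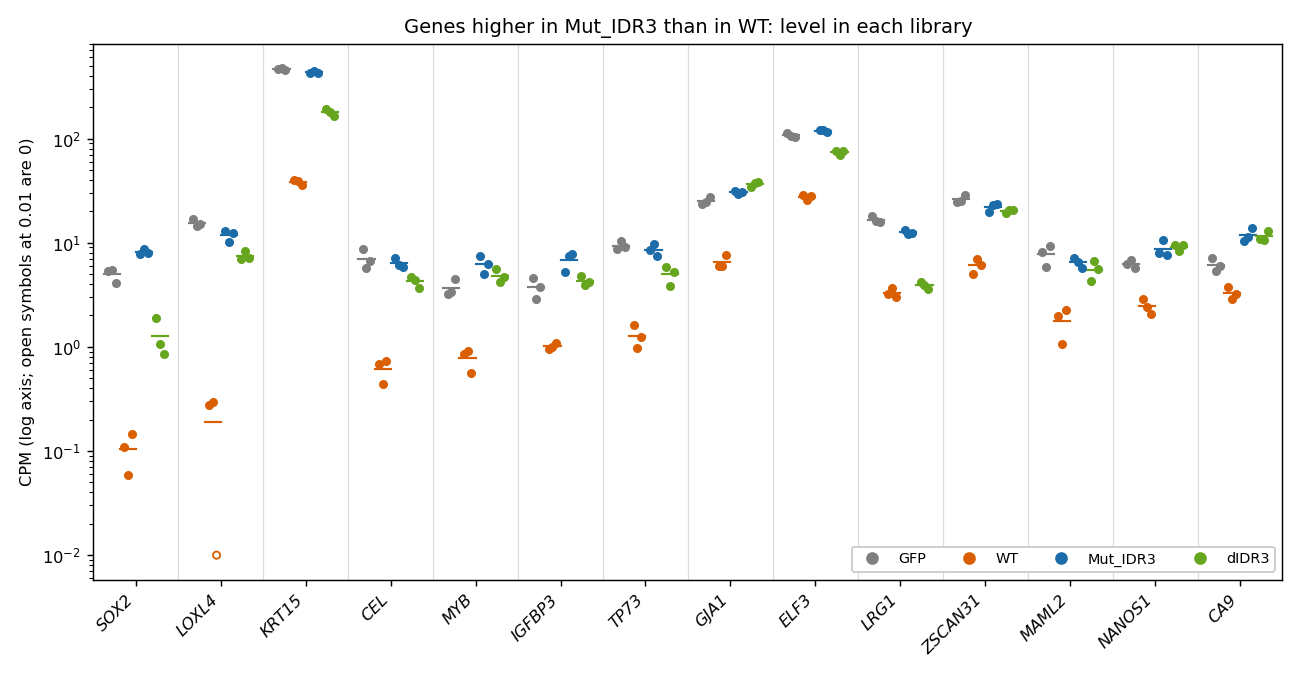
Level of genes from among these largest rises in each of the 12 libraries, in CPM on a log axis, with 1 symbol per library, a short line at the group mean and an open symbol at 0.01 for 0 counts. The 3 Mut_IDR3 libraries stand above all WT libraries for each gene drawn, and SOX2 and LRG1 are lower with dIDR3 (1.27 and 3.92 CPM) than with Mut_IDR3 (8.12 and 12.6 CPM).

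Among the other large rises were CEL, a lipase gene (3.34), the transcription factor gene MYB (3.01, from 0.776 ± 0.193 to 6.24 ± 1.18 CPM), and IGFBP3, which binds insulin-like growth factors (2.74). MAML2, a coactivator of Notch, rose by 1.87, ZSCAN31 by 1.87, NANOS1 by 1.84, and CA9, a carbonic anhydrase that hypoxia induces, by 1.84. The libraries of the 2 groups did not overlap for any of these 7 genes, by the rule that chose them. Against GFP, Mut_IDR3 was not called for CEL (-0.14, adjusted p = 0.653 by edgeR) or MAML2 (-0.27, adjusted p = 0.466). It was higher than GFP for MYB (0.75), IGFBP3 (0.87), NANOS1 (0.48) and CA9 (0.94).

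Acute-phase and complement genes went both ways, with 7 lower, 5 higher and 1 not called of 13. CFB, of the alternative complement pathway, fell from 9.53, 9.91 and 10.6 to 0.225, 0 and 0 CPM (-7.22, SE 0.99), where its counts with Mut_IDR3 came from 1 library. SAA1 fell by 2.52. CFI, a protease that restrains complement, was at 2.41, 1.77 and 2.27 CPM with Mut_IDR3 and had no counts with WT, at least 79.6-fold higher. LRG1, a secreted glycoprotein, rose from 3.19, 3.67 and 2.99 to 13.2, 12.1 and 12.4 CPM (1.94).

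Junction genes of the epithelium were lower in 16 of 32 cases, higher in 5 and not called in 11, with a median of -0.27. Beside this and the next list stand 20.9% lower and 23.2% higher of all tested features. The tight junction gene CLDN4 was at 1041, 883 and 1092 CPM with WT and 255, 259 and 249 CPM with Mut_IDR3 (-1.98, SE 0.07). The cadherins CDH3 and CDH1 fell by 1.00 and 0.78. Connexins split, since GJA1 rose from 5.98, 5.95 and 7.61 to 31.3, 29.2 and 30.7 CPM (2.22) and GJB2 by 1.39, while GJB5 fell by 0.49. The list of mesenchymal genes and regulators was lower in 8 of 17 cases and higher in 2, with a median of -0.15. With the GC trend removed 8 were lower and 1 higher, with a median of -0.03. FN1 fell by 1.55, TAGLN by 1.12 and THBS1 by 0.56. COL17A1, which the list also holds although it is a hemidesmosome collagen of basal cells, fell by 0.80.

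Of 17 proteases of invasion and their inhibitors, 12 were lower and 2 higher, with a median of -0.87. The urokinase receptor gene PLAUR was at 274, 265 and 289 CPM with WT, 34.8, 37.1 and 33.6 CPM with Mut_IDR3 and 32.2, 36.5 and 30.7 CPM with GFP (-2.97 against WT, SE 0.07, adjusted p = 1.99e-13). The urokinase gene PLAU fell by 1.41 and TIMP1, an inhibitor of metalloproteinases, by 1.05. The promoter of PLAUR holds the AP-1 letters in capitals, at chr19:43670320-43670379 (minus strand), and is shown as that of the list member with the lowest adjusted p.
PLAUR: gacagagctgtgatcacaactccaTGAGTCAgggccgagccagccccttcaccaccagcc

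Integrins and laminins were lower in 9 of 18 cases and higher in 4, where 20.9% of all tested features were lower and 23.2% higher. Their rises were thus near the share of all features. The laminin chain genes LAMA3 and LAMB3, of the anchor of basal cells, fell by 1.17 and 1.13, and the fibronectin receptor chain ITGA5 by 1.42. ITGA1 (1.77), ITGB6 (1.65), LAMA5 (0.45) and ITGAV (0.32) rose. Of 18 Notch pathway genes, 10 were lower and 6 higher, and with the GC trend removed 6 were lower and 7 higher. HES1, a target of Notch, fell by 0.85, while the ligand JAG2 rose from 49.5 ± 6.64 to 123 ± 1.21 CPM (1.31), and NRARP rose by 0.68.

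Genes for entry into S phase and DNA replication rose in 38 of 55 cases, fell in 3 (CCND3, E2F7 and CCND1) and were not called in 14, against 23.2% higher and 20.9% lower of all tested features. Their median was 0.33. HELLS, a chromatin remodeller, was at 20.5, 22.6 and 24.6 CPM with WT and 62.7, 55 and 55 CPM with Mut_IDR3 (1.35, SE 0.09, adjusted p = 2.42e-08). The replicative helicase subunits MCM6 and MCM3 rose by 0.88 and 0.53, and MCM10 by 0.89. The Mut_IDR3 values of HELLS overlapped the GFP values of 59.8, 52.8 and 59.1 CPM. Genes of G2/M and mitosis went both ways, with 16 higher, 15 lower and 21 not called of 52. KIF11 rose by 0.68, and CDC25B, AURKB and KIF20A fell by 0.49, 0.49 and 0.45. Once the trend with GC content was removed, 8 were higher and 17 lower, and their median of 0.18 changed sign to -0.02. That of G1/S was then 0.38, with 36 higher and 4 lower.

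Targets of p53 and regulators of apoptosis were lower in 15 of 35 cases and higher in 5. For this and the other lists of this paragraph, the shares of all tested features were 20.9% lower and 23.2% higher. PMAIP1, a killer protein of mitochondria, fell from 77.5 ± 10.1 to 12.3 ± 0.201 CPM (-2.65), GADD45A by 1.59, the death receptor gene TNFRSF10B by 0.83, and BCL2L1, which protects cells, by 0.99. In the list for the unfolded protein response and ATF4, 16 of 35 were lower, among them PPP1R15A (-2.05), XBP1 (-1.39) and PDIA4 (-0.57), and 5 were higher, among them the amino acid transporter SLC7A5 (0.99). Heat shock chaperones were higher in 13 of 26 cases and lower in 6. HSPA1A rose by 0.53 and HSPA1B by 0.48, with reads that are uncertain between these near-identical copies, BAG1 rose by 0.68, and HSPB8 fell by 0.78.

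The shares of all tested features, 20.9% lower and 23.2% higher, stand beside the counts of the next 3 lists. Of 36 hypoxia and glycolysis genes, 14 were lower and 8 higher, the latter near the share of all features, with SLC2A3 (-1.59), NDRG1 (-1.04) and P4HA2 (-0.75) lower. In cholesterol and fatty acid synthesis, 12 of 32 genes were lower and 11 higher. The regulator SREBF1 (0.98), FADS1 (0.77) and the desaturase SCD (0.64) rose, while FDFT1, which commits the pathway to sterols, fell by 0.43. In iron handling and ferroptosis defence, 9 of 23 genes were higher and 6 lower. The transferrin receptor gene TFRC was at 95.7, 97.5 and 95 CPM with WT and 254, 235 and 229.6 CPM with Mut_IDR3 (1.32, SE 0.05, adjusted p = 8.32e-11). IREB2, an RNA-binding regulator of iron genes, rose by 0.92, STEAP3 by 0.74 and NFE2L2 by 0.71.

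Genes of ribosome biogenesis were higher in 29 of 46 cases and lower in 5, with a median of 0.25. NOP58, of the complex that modifies ribosomal RNA, rose from 22.8 ± 3.37 to 53.5 ± 2.88 CPM (1.23), DDX18 by 0.87, DDX21 by 0.68 and HEATR1 by 0.58. Cytosolic ribosomal proteins themselves were lower in 29 of 82 cases and higher in 4, with a median of -0.15. Of 20 aminoacyl-tRNA synthetases, 9 were higher, such as NARS (0.61), LARS (0.54) and IARS (0.43), and 3 lower. WARS, the member that interferon induces, fell by 1.63, from 594 ± 14.7 to 192 ± 4 CPM.

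Mitochondrially encoded mRNAs were higher in 12 of 13 cases and lower in none, with a median of 0.52, or 0.33 with the GC trend removed. MT-CYB was at 2648, 2972 and 3014 CPM with WT and 6524, 5988 and 6843 CPM with Mut_IDR3 (1.16, SE 0.06, adjusted p = 2.53e-09). MT-CO3 rose by 0.82 and MT-ATP6 by 0.74, and MT-ND1 (-0.03, adjusted p = 0.737) was not called. Nuclear genes of the respiratory chain did not share this direction, with 27 lower, 3 higher and 52 not called of 82. Clustered histone genes were lower in 15 of 33 cases and higher in none (median -0.78). Of 367 ZNF genes, 100 were higher and 46 lower (median 0.15), against 23.2% and 20.9% of all tested features. With the GC trend removed 65 were higher and 44 lower, with a median of 0.04.

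Of 15 relatives and partners of TFAP2B, itself among them, 2 were higher, 5 lower and 8 not called, and with the GC trend removed 4 were higher and 3 lower. TFAP2A was at 126, 132 and 125 CPM with WT, 53, 50.3 and 57.8 CPM with Mut_IDR3 and 61.2, 59.4 and 58.5 CPM with GFP (-1.24 against WT, SE 0.06, adjusted p = 1.31e-09). TFAP2C fell by 0.33 (adjusted p = 0.00752, and 0.05005 with the GC trend removed). The coactivator gene CITED2 fell by 0.80, and NPM1, a nucleolar partner, rose by 0.53. ZNF131, a zinc-finger gene described as a target of TFAP2B, rose from 11.7, 12.7 and 14 to 19.7, 18.2 and 21.6 CPM (0.64, SE 0.09, adjusted p = 5.81e-05). Mut_IDR3 was not called against GFP for ZNF131 (-0.24, adjusted p = 0.0733 by edgeR).

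**Figure D4:**
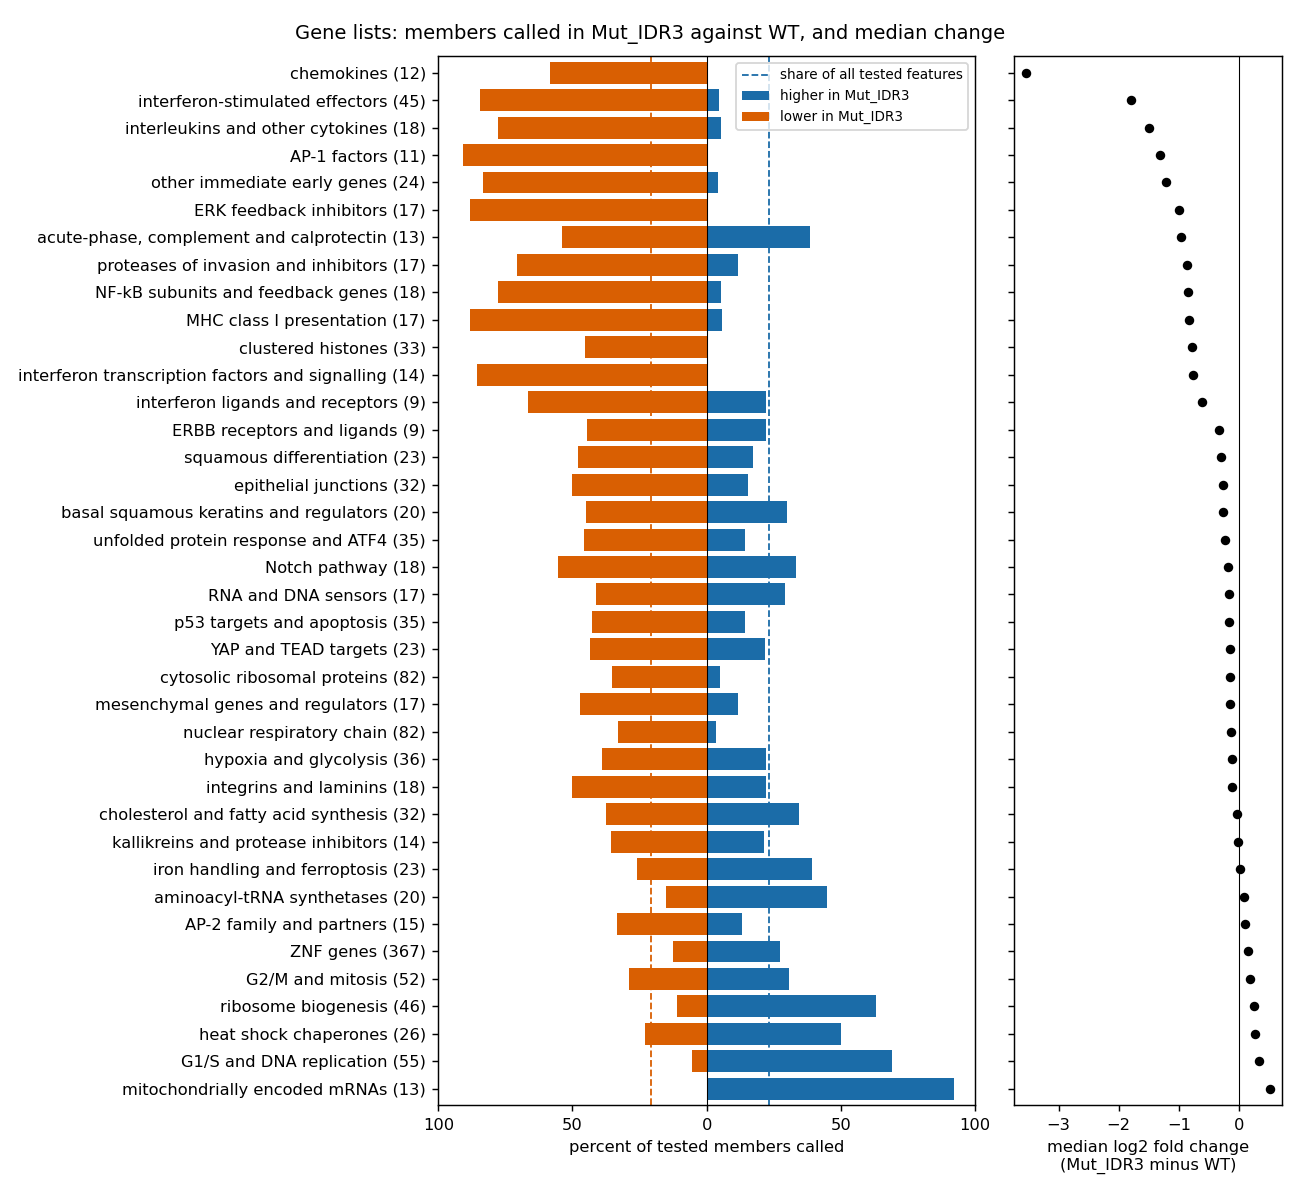
Left, percent of the tested members of each gene list (number in brackets; cell type markers and lists of under 9 members are not drawn) called higher (blue, to the right) or lower (orange, to the left) with Mut_IDR3 than with WT, with dashed lines at the shares of all tested features, 23.2% and 20.9%. Right, the median log2 fold change of each list drawn, which ranges from -3.53 for chemokines to 0.52 for mitochondrially encoded mRNAs. Some members, among them several chemokines, passed the filter on low counts through WT alone and could not come out higher.

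The change moved with the base composition of the genes. Over 12724 genes with a known GC content of their longest transcript, the log2 fold change and the GC content had a Spearman correlation of -0.39, and the value with length was 0.22, both across genes, which share the 6 libraries. In the fifth of genes with the lowest GC content (31.3 to 41.1%), 51.2% were higher and 6.80% lower, with a median of 0.35. In the fifth with the highest (58.6 to 75.8%), 7.78% were higher and 35.4% lower, with a median of -0.17. With the GC trend removed, 4651 of the 6519 calls (71.4%) were still called in the same direction and 11 in the opposite one. Of the 972 calls of at least 2-fold, 937 (96.4%) were still called in the same direction. The interferon-stimulated effectors then held a median of -1.65, with 36 of 45 lower.

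**Figure D5:**
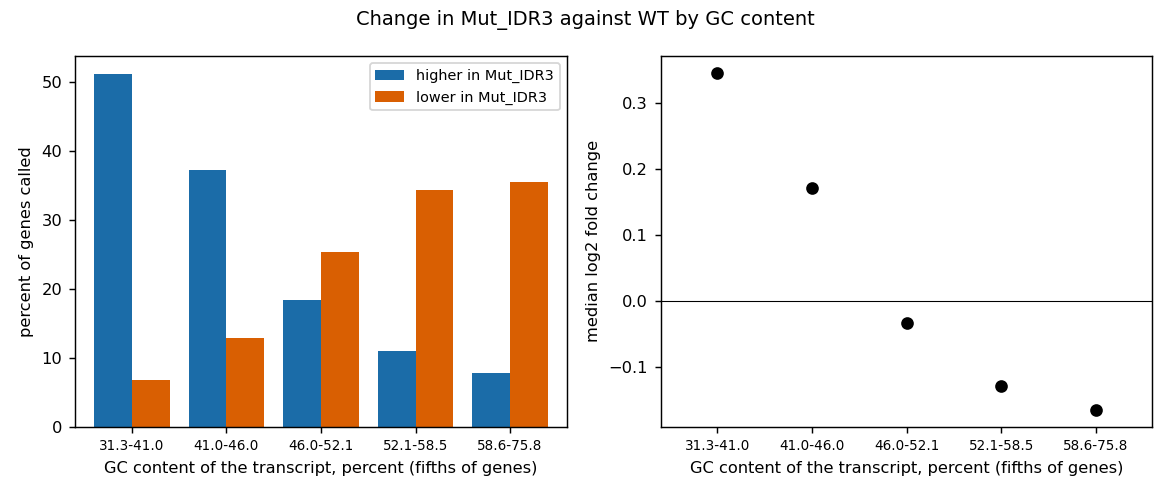
Left, percent of genes called higher (blue) or lower (orange) with Mut_IDR3 in 5 equal groups of genes ordered by GC content of the longest transcript. Right, the median log2 fold change of the same groups, which falls from 0.35 at the lowest to -0.17 at the highest GC content.

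Several genes that changed at least 2-fold in the same direction lay near each other. Runs of 3 or more such genes with gaps of at most 100000 bases included KRT9, KRT14, KRT16, KRT17 and GAST on chromosome 17 (41565841 to 41715969), IFIT2, IFIT3 and IFIT1 on chromosome 10 (89283694 to 89406486), and OAS1, OAS3 and OAS2 on chromosome 12 (112906777 to 113011723). Others that were lower were the IFNL genes, CCL3, CCL4 and their copies on chromosome 17, the small proline-rich genes SPRR1A, SPRR1B and SPRR2D on chromosome 1, APOL3, APOL2 and APOL1 on chromosome 22, and 5 histone genes on chromosome 6 (26031650 to 26171349). A single run was higher with Mut_IDR3, that of SYT8, TNNI2 and TNNT3 on chromosome 11 (1828307 to 1938706). Members of such families can share sequence, and a chance rate of such runs was not computed.

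Mut_IDR3 was also compared directly with dIDR3, to show where the change from WT differed between the altered forms. Of the tested features 1594 (10.8%) differed, 819 higher (5.54%) and 775 lower (5.24%) with Mut_IDR3, and the count was 917, 819 and 902 without Mut_IDR3 replicates 1, 2 and 3, and 1143, 844 and 948 without dIDR3 replicates 1, 2 and 3. TFAP2B did not pass the test (-0.01, SE 0.11, adjusted p = 0.989). The interferon-stimulated effectors were higher with Mut_IDR3 than with dIDR3 in 18 of 45 cases and lower in none, among them RSAD2 (1.81 against 0.681 CPM) and OASL (9.41 against 6.94 CPM). KRT15 was at 192, 178 and 164 CPM with dIDR3, below every Mut_IDR3 library (1.28, SE 0.06, adjusted p = 1.87e-08), and KRT17 was higher with Mut_IDR3 as well (0.70). Lower with Mut_IDR3 were 24 of 46 ribosome biogenesis genes, 19 of 55 G1/S genes and 14 of 26 heat shock chaperones, with none of these 3 lists higher in any member. FOSL1 was at 52.7, 49 and 51 CPM with Mut_IDR3 and 94.6, 98.2 and 97.1 CPM with dIDR3 (-0.92, adjusted p = 1.14e-06). IFIT1 (-0.02), TFAP2A (0.04) and PLAUR (0.00) did not pass the test between the altered forms.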

How the data were processed

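Gene counts were deposited as 1 whole-number table of 24302 features by 12 libraries. RNA extraction used Qiagen RNeasy and library construction a SMARTer mRNA kit, per the labels. Trim Galore, HISAT2, StringTie and the human genome GRCh38 (hg38) were used by the authors, per the submitters' processing notes. Versions, the counting tool, the annotation release and strand handling are not given in the sources used here, so overlapping or antisense genes and near-identical copies are uncertain.

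Each column was matched to its sample by name. Features without sufficient counts were dropped (edgeR's filterByExpr), which left 14792, and 4118 had no counts at all. Libraries were scaled by TMM, and 1 quasi-likelihood model over all 4 groups (edgeR 4.0.16 with limma 3.58.1 in R 4.3.3) gave log2 fold changes, standard errors and Benjamini-Hochberg adjusted p-values, with calls at an adjusted p under 0.05. CPM values are TMM-scaled and are not comparable between genes, since gene length is not taken into account. Library totals of 30.7 M to 43.5 M counts limit the precision of low genes. With 3 libraries against 3 an exact permutation test cannot go below 0.1, so none is given. The model, DESeq2, limma-voom and the removal of a GC trend were also run on simulated counts with changes in a small part of the genes. Those counts held no shift as broad as the one seen here, so nothing is drawn from them.

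Genes were named by rule: TFAP2B, TFAP2A, TFAP2C and ZNF131, the 15 largest rises and 15 largest falls among called genes with an established symbol, at least 5 CPM in the higher group and libraries that do not overlap, the 5 largest gains and losses in CPM, up to 4 members of each list with the lowest adjusted p, and up to 6 genes each way that also differed from dIDR3. Other genes, mostly exceptions within a list, were chosen after their values were seen, and some genes that meet the rule are not reported here. The comparison and the gene lists were chosen with earlier results of these data known. GC content, length and positions came from GENCODE transcripts of GRCh38, and promoter sequences from RefSeq (GRCh38.p14), where 9946 of 14786 tested symbols matched. The GC trend was removed by an offset fitted in 20 bins of GC content in each library. Alternatives covered scaling, the filter, DESeq2 1.42.0, limma-voom, the groups in the fit, a replicate block, GC content, mitochondrial mRNAs and each library in turn.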

Additional observations from a re-analysis of the deposited data

Results flagged for a closer look

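For 12 genes that differed between Mut_IDR3 and WT, the change was not the same in the second altered form, by a direct test of Mut_IDR3 against dIDR3 with edgeR's quasi-likelihood fit (Benjamini-Hochberg adjustment over all tested features). They are the largest such differences in each direction among genes where WT or Mut_IDR3 reached 5 CPM. DHX58, HERC5, APOL3, CCL3 and SPOCK1 reached this level through WT, and had means under 1 CPM with both Mut_IDR3 and dIDR3. Both changes from WT share the WT libraries, and the values below compare Mut_IDR3 with dIDR3 alone.

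SOX2 was 7.78, 8.63 and 7.96 CPM with Mut_IDR3 and 1.9, 1.06 and 0.847 CPM with dIDR3, without overlap, and its log2 difference was 2.68 (SE 0.27, adjusted p = 2.66e-05). LRG1 was higher by 1.68 (adjusted p = 1.45e-06), with 4.22, 3.95 and 3.58 CPM for dIDR3 overlapping the 3.19, 3.67 and 2.99 CPM of WT. Among genes lower with both altered forms than with WT, HERC5 was higher with Mut_IDR3 than with dIDR3 by 2.31 (adjusted p = 0.00745), the acute-phase gene SAA1 by 1.93 (adjusted p = 0.000574) and APOL3 by 1.74 (adjusted p = 0.00421). DHX58 had 17 counts over the 3 Mut_IDR3 libraries and none with dIDR3, at least 6.04-fold higher, beside a fitted value of 5.53 (adjusted p = 0.0139) that is no bound.

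MCAM, a cell adhesion molecule, was 1.32, 2.16 and 2.06 CPM with Mut_IDR3 and 10.3, 7.92 and 7.57 CPM with dIDR3, a difference of -2.21 (adjusted p = 0.000284). It was 6.78, 4.59 and 6.4 CPM with WT, below every dIDR3 library and above every Mut_IDR3 library. The synaptic gene RIMS2 was lower by 1.69 (-1.69, adjusted p = 0.00468), at 4.89, 6.39 and 5.31 CPM with Mut_IDR3. It was uneven with dIDR3 (20.3, 24.6 and 8.64 CPM, mean 17.8) and with WT (9.81, 21.6 and 20.5 CPM, mean 17.3). ZNF703 differed by -1.16 (adjusted p = 0.000123) and TENM2 by -1.12 (adjusted p = 7.40e-06). CCL3 had no counts with Mut_IDR3 and 13 with dIDR3, at least 4.07-fold lower (fitted -5.08, adjusted p = 0.0147). SPOCK1 had 2 counts against 23, a ratio of 10.8 (95% counting interval 2.67 to 94.5; fitted -3.21, adjusted p = 0.0149).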

How the results depend on the processing

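With 3 libraries a group, low genes limit what could be detected, and the amount of construct RNA, mitochondrial share and GC content moved with the groups. The 6519 calls between Mut_IDR3 and WT stayed within 1.5 times under every alternative, from 5478 without WT replicate 1 to 6775 with DESeq2, and 4760 passed an adjusted p under 0.01. DESeq2 shared 6428 calls of the same sign and limma-voom 6373. The share of calls that were higher ranged from 48.9% (only the 2 groups in the fit) to 56.1% (upper-quartile scaling), against 52.7%. The calls between Mut_IDR3 and dIDR3 (1594) were the count that moved most. They were 917, 819 and 902 without Mut_IDR3 replicates 1, 2 and 3, and 1143, 844 and 948 without dIDR3 replicates 1, 2 and 3, so that the range was 819 to 1143 with fewer samples. They were 2290 with only these 2 groups in the fit and 2159 with DESeq2. Deviations of same-numbered Mut_IDR3 and WT libraries had correlations of -0.08, -0.18 and -0.12, so the numbers were not taken as pairs, and no library of these groups correlated best with its own number. A fit with a replicate block called 6280 features against WT and 1206 against dIDR3. The alternatives were run for the 185 genes that the naming rule picked (184 and 180 of them under 2 settings), not for the other genes named, such as IRF9. None of the 185 reversed its direction, and 3 lost their call under an alternative, COL1A1 under 6 of them (adjusted p 0.05008 to 0.204), and LOXL1 and TFAP2C with the GC trend removed. For these genes, the cause was not tested.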

Other observations

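Among the largest losses in absolute level were genes of the cytoskeleton. ACTB, cytoplasmic beta-actin, was 11576, 10791 and 11752 CPM with WT, 6238, 6411 and 6311 CPM with Mut_IDR3 and 4912, 4841 and 4685 CPM with GFP (-0.85 against WT, SE 0.04, adjusted p = 8.60e-10 by edgeR). The 3 groups did not overlap, with Mut_IDR3 between the others. ACTG1, its gamma counterpart, fell by 0.81.

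Against dIDR3, members of the list for the unfolded protein response and ATF4 were higher with Mut_IDR3 in 12 of 35 cases and lower in 2, MHC class I genes higher in 8 of 17, and cytosolic ribosomal proteins higher in 17 of 82 and lower in 1, where 5.54% of all tested features were higher and 5.24% lower. Notch pathway genes were higher in 8 of 18 cases and lower in none.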
